A study of Rattus norvegicus with 8 samples.

Results

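The 44 genes described here encode the secreted and membrane-bound metalloproteinases of the extracellular matrix and their inhibitors. They were taken by symbol from the 2 deposited tables and comprised 19 matrix metalloproteinase (Mmp) genes, 18 Adamts genes, 4 Adamtsl genes and 3 Timp genes, out of 18513 genes listed in either table. Mmp12 was left out of the set. The table of adipose-derived stem cells (ASC) listed 38 of them among 14295 genes, the table of adipocytes (AD) listed 42 among 18236 genes, and 36 stood in both. Mmp10 and Adamts18 were listed for ASC alone, and Mmp1b, Mmp8, Mmp16, Adamts3, Adamts17 and Adamts20 for AD alone. Every listed member passed the filter on low values, a mean deposited value of at least 10, which removed no gene of either table. All 44 symbols matched a gene of the RefSeq annotation of assembly GRCr8.

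The study asked whether diet-induced obesity leaves marks in fat cell precursors that persist in the adipocytes derived from them. ASC were grown from collagenase-digested inguinal fat of wild-type Wistar rats after 6 months on a high-fat sucrose diet (HFS) or a control diet (C). ASC_HFS and ASC_C were the undifferentiated cultures in serum-containing medium. AD_HFS and AD_C were confluent cultures of the same origin, kept for 3 days with 10.0 µg/mL insulin, 0.5 mM of the phosphodiesterase inhibitor IBMX and 5.0 µM of the glucocorticoid dexamethasone, and then for 7 days with insulin alone. Each group had 2 libraries of 50 bp paired-end reads. The labels do not say whether these came from separate rats, cultures or pools, nor give the age or sex of the rats, so p-values measure the spread between these libraries, which may be technical.

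As background, matrix metalloproteinases (MMPs) are zinc-dependent enzymes made as inactive precursors, most of them secreted and some anchored in the membrane, and they cleave collagens, gelatins, proteoglycans and other proteases. ADAMTS enzymes carry thrombospondin repeats that hold them in the matrix. They trim procollagens, cleave large proteoglycans such as versican and aggrecan, or cut von Willebrand factor. ADAMTS-like proteins keep the repeats without a catalytic domain and bind fibrillin microfibrils. Tissue inhibitors of metalloproteinases (TIMPs) bind the active site of these enzymes. In expanding fat, precursors and adipocytes remodel a collagen-rich pericellular matrix, and Mmp14 is needed for normal white fat in mice.

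Levels are given as normalized counts, which are whole reads recovered from the deposited values and divided by the size factor of the library, and they are comparable within a table only. The recovered reads came to 5851960 and 992618 in the ASC_HFS libraries, 3339269 and 7290961 in the ASC_C libraries, 119555051 and 81169085 in the AD_HFS libraries and 76083827 and 118464336 in the AD_C libraries. In ASC_HFS replicate 2, the shallowest, 3 reads equalled 10.9 normalized counts, so members below that level were hardly measurable there. For genes with 100 to 1000 reads, the median chi-square between the libraries of a pair was 0.765 in AD_HFS, against 9.27 in AD_C, 2.05 in ASC_HFS and 4.36 in ASC_C, where counting error alone gives 0.455. The AD_HFS pair was thus close to counting error and the AD_C pair far from it. A gene was called when its two-sided limma-trend p on log2(deposited value + 1) stayed under 0.05 after Benjamini-Hochberg adjustment over its whole table. Log2 differences, given with their standard error (SE), understate the change of members with few reads on this scale. They therefore stand beside ratios of mean normalized counts (HFS over C, n = 2 each).

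In ASC, Adamts1, Adamts4, Adamts5 and Adamts9, which cleave proteoglycans, the procollagen-trimming Adamts2, Adamts12, Adamtsl4, Timp3, Timp4 and Mmp27 were higher after the HFS diet. Matrilysin (Mmp7), Mmp9, Mmp23, Mmp24, Adamts7, Adamts10 and Adamts13 were lower. Of the 38 members, 17 were called (44.7%), against 19.1% of all genes in that comparison. The 10 higher ones made up 26.3% of the members, against 9.41% of all genes, and the 7 lower ones 18.4%, against 9.7%. The median log2 difference was 0.06 over the members and -0.04 over all genes tested, so the set as a whole had no direction. The 2 HFS libraries lay outside the range of the C libraries for 26 members (68.4%), against 61% of all genes, with 14 higher (36.8%, against 28.5%) and 12 lower (31.6%, against 32.5%). Without any 1 of the 4 ASC libraries limma-trend called 0 of the 38 members and 0% of all genes. With all libraries it found 19 members (50%) at an unadjusted p under 0.05, against 33.3% of all genes. The number was 16 without ASC_HFS replicate 1 (31.7% of all genes), 18 without ASC_HFS replicate 2 (21.8%), 11 without ASC_C replicate 1 (16.2%) and 16 without ASC_C replicate 2 (20.8%), so in these fits too the share of members stood above that of all genes. Limma-voom on the recovered reads called 19 members with all libraries, against 22.3% of all genes. It called 9 without ASC_HFS replicate 1 (7.6% of all genes), 13 without ASC_HFS replicate 2 (9.86%), 15 without ASC_C replicate 1 (22.8%) and 20 without ASC_C replicate 2 (25.5%). Of the lower calls, 0 were left without ASC_HFS replicate 1 (0%, against 1.96% of all genes) and 2 without ASC_HFS replicate 2 (5.26%, against 4.16%). With all libraries, limma-trend on the log2 of recovered normalized counts called 9 members higher (23.7%, against 8.14% of all genes) and 4 lower (10.5%, against 8.01%), so the share of lower calls was then near that of all genes.

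**Figure D1:**
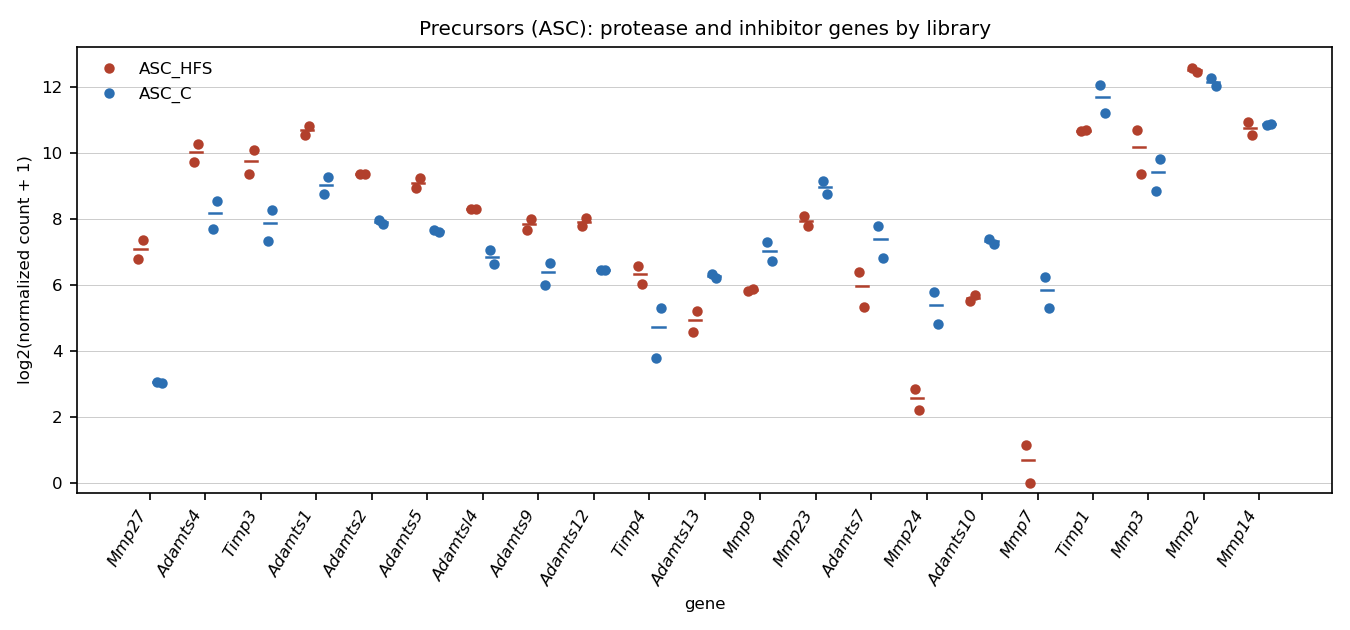
Log2(normalized count + 1) of the called members, Timp1, Mmp2, Mmp3 and Mmp14 in each ASC library (points) with the mean of a group (line), ASC_HFS in red and ASC_C in blue, n = 2 each. The ADAMTS genes 1, 2, 4, 5, 9 and 12 and Timp3 stand higher in both ASC_HFS libraries, Mmp7 and Mmp24 stand lower, and the points of Mmp3 and Mmp14 overlap between diets.

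Markers of other cell types moved with diet in the same libraries. Of 12 macrophage markers 8 rose in ASC_HFS, and together the 12 took 0.297% and 0.303% of reads there, against 0.0886% and 0.106% in ASC_C. Of 8 endothelial markers 7 rose, at 0.114% and 0.119% in ASC_HFS, against 0.0247% and 0.05% in ASC_C. Of 7 epithelial and mesothelial markers 5 rose and 1 fell, and 3 of 7 adipocyte markers rose. Of 9 mesenchymal progenitor markers 3 rose (Eng, Dpp4 and Cd34) and 3 fell (Lum, Thy1 and Pdgfra), at 0.479% and 0.536% of reads in ASC_HFS, against 0.95% and 0.810% in ASC_C. No measured marker of the macrophage, endothelial or progenitor lists was at 0 in all 4 libraries. The part of these other cells in the levels of the protease and inhibitor genes was not tested. In bulk RNA, fewer cells of a type and less RNA per cell cannot be told apart.

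Hyalectanases cleave versican, aggrecan and related proteoglycans, and of the 6 listed for ASC, 4 rose, 0 fell and 2 were not called. Over all genes of that comparison 9.41% were called higher and 9.7% lower. Adamts4, an aggrecanase, had 850 and 1255 normalized counts in ASC_HFS, against 207 and 373 in ASC_C. Adamts1, which cleaves versican, had 1498 and 1824 in ASC_HFS, against 433 and 625 in ASC_C. For both genes each HFS library lay above each C library, and the ratio of means was 3.63 for Adamts4 (log2 difference 1.67, SE 0.31, adjusted p = 0.00275, limma-trend) and 3.14 for Adamts1 (log2 difference 1.55, SE 0.29, adjusted p = 0.00338).

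Adamts5, the other aggrecanase, had 493 and 606 normalized counts in ASC_HFS, against 205 and 195 in ASC_C, a ratio of 2.75 (limma-trend adjusted p = 0.00527). Adamts9, a versican-cleaving enzyme, had 204 and 257 in ASC_HFS, against 63.9 and 101 in ASC_C, a ratio of 2.79 (limma-trend adjusted p = 0.00993). The groups did not overlap for these 2 genes either. Adamts8 had 10.6 and 39.9 in ASC_HFS, against 0.926 and 4.93 in ASC_C, with few reads and without a call (limma-trend adjusted p = 0.0608). Adamts15 had 308 and 225 in ASC_HFS, against 371 and 328 in ASC_C (limma-trend adjusted p = 0.387).

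Among the procollagen N-proteinases, which remove the amino-terminal propeptide of fibrillar collagens, Adamts2 rose and Adamts14 was not called. Adamts2 had 665 and 667 normalized counts in ASC_HFS, against 250 and 232 in ASC_C, a ratio of 2.76 (log2 difference 1.26, SE 0.25, limma-trend adjusted p = 0.00428). Adamts14 had 23.1 and 21.8 in ASC_HFS, against 27.8 and 18.4 in ASC_C (limma-trend adjusted p = 0.982). Adamts12 and Adamts7, both known to cleave cartilage oligomeric matrix protein, moved in opposite directions. Adamts12 had 222 and 261 in ASC_HFS, against 86.1 and 87.0 in ASC_C, a ratio of 2.79 (limma-trend adjusted p = 0.00739). Adamts7 had 84.2 and 39.9 in ASC_HFS, against 220 and 113 in ASC_C, a ratio of 0.372 (limma-trend adjusted p = 0.0361). Adamts12 was nearly alike in the 2 libraries of each diet, whereas Adamts7 differed within both diets.

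Adamts10, a fibrillin-binding enzyme, fell in ASC_HFS, where its libraries held 72 reads and 14 reads. It had 44.9 and 50.8 normalized counts in ASC_HFS, against 168 and 152 in ASC_C, a ratio of 0.299 (log2 difference -1.07, SE 0.22, limma-trend adjusted p = 0.00496). Adamts13, the protease of von Willebrand factor, had 23.1 and 36.3 in ASC_HFS, against 80.6 and 74.0 in ASC_C, a ratio of 0.384 (limma-trend adjusted p = 0.0384). Its gene overlaps Cacfd1 in the GRCr8 annotation and the strand setting of the authors' counting is not given in the sources used here, so reads of the 2 genes could mix. Of the other Adamts genes, Adamts6 (20.4 to 29.0 normalized counts over the 4 libraries), Adamts16 (9.26 to 20.6) and Adamts18 (0 to 4.37) were not called. Of the 4 ADAMTS-like genes 1 was called, against 19.1% of all genes. Adamtsl4, whose product binds fibrillin microfibrils, had 316 and 315 in ASC_HFS, against 132 and 98.6 in ASC_C, a ratio of 2.73 (limma-trend adjusted p = 0.00683). Adamtsl2 (0 to 3.71), Adamtsl3 (14.8 to 31.8) and Adamtsl5 (77.1 to 120) were not called.

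The matrix metalloproteinases of ASC gave 1 higher and 4 lower calls among 16 genes, against 9.41% higher and 9.7% lower over all genes. Of the gelatinases, which degrade denatured and basement membrane collagen, Mmp9 was lower and Mmp2 was not called. Mmp9 had 55.5 and 58.0 normalized counts in ASC_HFS, against 157 and 105 in ASC_C, a ratio of 0.434 (log2 difference -0.72, SE 0.23, limma-trend adjusted p = 0.0422). Mmp2 had 6167 and 5635 in ASC_HFS, against 4983 and 4193 in ASC_C (limma-trend adjusted p = 0.503). The groups of Mmp2 did not overlap, yet its difference was close to its SE (log2 difference 0.36, SE 0.35). The membrane-anchored Mmp14, an activator of pro-Mmp2, had 1954 and 1490 in ASC_HFS, against 1867 and 1878 in ASC_C (limma-trend adjusted p = 0.808), and the groups overlapped.

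Mmp24, another membrane-type enzyme, had 6.24 and 3.63 normalized counts in ASC_HFS, against 54.7 and 27.3 in ASC_C, a ratio of 0.120 (log2 difference -0.93, SE 0.23, limma-trend adjusted p = 0.0137). These were 10 reads and 1 read in the HFS libraries, so that replicate 2 was below its limit of 3 reads. Its gene overlaps Mmp24os in GRCr8, with the same doubt about strand. Mmp15 (7.25 to 16.2) and Mmp17 (10.6 to 41.7) were not called. Mmp23 had 273 and 221 in ASC_HFS, against 568 and 431 in ASC_C, a ratio of 0.494 (limma-trend adjusted p = 0.0351). Mmp19 (482 to 529), Mmp28 (6.86 to 18.1) and Mmp21 were not called, and Mmp21 had reads in 1 of the 4 libraries, at 8.73 in ASC_HFS replicate 1. Of the stromelysins, Mmp3, which also activates other proenzymes, had 1659 and 656 in ASC_HFS, against 467 and 914 in ASC_C (limma-trend adjusted p = 0.292). Of Mmp3, ASC_HFS replicate 1 was the highest library and ASC_HFS replicate 2 lay between the 2 ASC_C libraries. Mmp10 (1.25 to 10.8) and Mmp11 (7.25 to 31.5) were not called, nor was the collagenase Mmp13, with 45.5 and 10.9 in ASC_HFS, against 37.1 and 37.2 in ASC_C (limma-trend adjusted p = 0.539).

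The log2 differences farthest from 0 in either direction among the 38 members were those of Mmp27 and Mmp7, which lie in the same gene cluster. Mmp27 had 110 and 163 normalized counts in ASC_HFS, against 7.41 and 7.17 in ASC_C, a ratio of 18.8 (log2 difference 1.84, SE 0.22, limma-trend adjusted p = 0.000175). Mmp7, matrilysin, a small enzyme without a hemopexin domain, had 1.25 and 0 in ASC_HFS, against 75.0 and 38.6 in ASC_C (log2 difference -1.55, SE 0.24, limma-trend adjusted p = 0.000792). These were 2 reads of Mmp7 in all in ASC_HFS, against 167 reads in ASC_C. Per size-scaled read, Mmp7 was 47.4 times lower in ASC_HFS than in ASC_C, with an exact 95% interval of 12.9 to 395 that covers counting error only. In the GRCr8 annotation 7 members, Mmp13, Mmp1b, Mmp3, Mmp10, Mmp8, Mmp27 and Mmp7, lie in 1 cluster on chromosome 8, in that order. Within ASC, neighbours in this cluster therefore stood higher (Mmp27), stood lower (Mmp7) or were not called (Mmp3, Mmp10 and Mmp13). Mmp3 and Mmp10 are closely related copies, so reads could be split between them.

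To show what the windows before these starts hold, the 250 bases upstream of the RefSeq start of Mmp3, Mmp7 and Mmp27 are given below (GRCr8, plus strand, written 5′ to 3′), with matches to the AP-1 letters TGANTCA and to the TATA letters TATAAA in capitals. The Mmp3 window is chr8:12925031-12925280, the Mmp7 window chr8:13132793-13133042 and the Mmp27 window chr8:13030502-13030751.
Mmp3: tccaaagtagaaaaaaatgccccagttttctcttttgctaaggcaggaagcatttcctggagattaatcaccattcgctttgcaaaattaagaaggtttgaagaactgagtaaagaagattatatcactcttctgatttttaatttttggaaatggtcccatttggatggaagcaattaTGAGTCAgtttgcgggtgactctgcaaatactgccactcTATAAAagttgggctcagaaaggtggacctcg
Mmp7: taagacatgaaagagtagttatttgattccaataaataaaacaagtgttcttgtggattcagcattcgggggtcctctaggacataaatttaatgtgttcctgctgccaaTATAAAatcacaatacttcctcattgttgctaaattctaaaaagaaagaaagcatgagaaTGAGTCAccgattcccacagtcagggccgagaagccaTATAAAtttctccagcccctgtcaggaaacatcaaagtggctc
Mmp27: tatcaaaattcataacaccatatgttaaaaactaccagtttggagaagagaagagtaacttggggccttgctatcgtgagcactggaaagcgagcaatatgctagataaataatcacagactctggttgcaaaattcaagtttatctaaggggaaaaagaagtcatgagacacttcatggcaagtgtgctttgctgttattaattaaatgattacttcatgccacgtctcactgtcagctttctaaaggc

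The AP-1 letters began 71 bases before the start in Mmp3 and 80 bases before it in Mmp7, and TATAAA began 32 and 43 bases before the start in these 2 genes, with a further match 140 bases before the start of Mmp7. The Mmp27 window held neither. Over windows of 250 bases before to 50 bases after the start, searched on both strands for AP-1, 4 of the 34 members with a window had a match (Mmp3, Mmp7, Mmp10 and Mmp13, all in the chromosome 8 cluster), against 8.04% of 27457 genes. TATAAA on the gene's strand was in 7 of the 34, against 9.67% of all genes, and the cyclic AMP response letters TGACGTCA were in 0 of the 34, against 2% of all genes. The 4 genes with AP-1 letters included 1 that was called in ASC (Mmp7, lower) and 3 that were not. These matches describe the letters of the windows and no binding was measured.

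Of the 3 inhibitor genes in the tables, Timp3 and Timp4 were higher and Timp1 was not called in ASC. Timp3, which is held in the matrix and inhibits ADAMTS as well as MMP enzymes, had 660 and 1084 normalized counts in ASC_HFS, against 159 and 310 in ASC_C, a ratio of 3.71 (log2 difference 1.66, SE 0.32, limma-trend adjusted p = 0.00348). Timp4, an inhibitor known from heart and fat, had 95.4 and 65.3 in ASC_HFS, against 13.0 and 38.6 in ASC_C, a ratio of 3.12 (limma-trend adjusted p = 0.0294). Both inhibitors were higher in each HFS library than in each C library. Timp1, a soluble inhibitor, had 1637 and 1657 in ASC_HFS, against 4334 and 2368 in ASC_C, a ratio of 0.491 (log2 difference -0.93, SE 0.35, limma-trend adjusted p = 0.0787). The groups of Timp1 did not overlap either, and its adjusted p was 0.0260 by limma-voom and 0.0487 after quantile normalization. In GRCr8 each of the 3 genes overlaps a synapsin gene (Syn1, Syn3 and Syn2), with the same doubt about strand.

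Summed over a class, the ADAMTS genes of ASC gave 4477 and 5327 normalized counts in ASC_HFS, against 2144 and 2348 in ASC_C, a ratio of 2.18. The MMP genes gave 10855 and 8797 in ASC_HFS, against 8791 and 8239 in ASC_C, a ratio of 1.15, and the TIMP genes 2392 and 2807 in ASC_HFS, against 4506 and 2717 in ASC_C, a ratio of 0.720. The ADAMTS sums stood well apart between diets, the MMP sums barely, and the TIMP sums overlapped. Proteases (MMP plus ADAMTS) over inhibitors came to 6.41 and 5.03 in ASC_HFS, against 2.43 and 3.90 in ASC_C, without overlap. Timp1, the inhibitor that was lower in ASC_HFS without a call, took 68.4% and 59.0% of the TIMP counts in ASC_HFS, against 96.2% and 87.2% in ASC_C. Without the top gene of each class (Mmp2, Adamts1 and Timp1) the TIMP sum was 3.66 times higher in ASC_HFS than in ASC_C and the ratio of proteases to inhibitors was 0.328 times that of ASC_C. Sums take no account of gene length, and no test of them was made, since an exact permutation test of 2 libraries against 2 gives no two-sided p below 0.333.

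**Figure D2:**
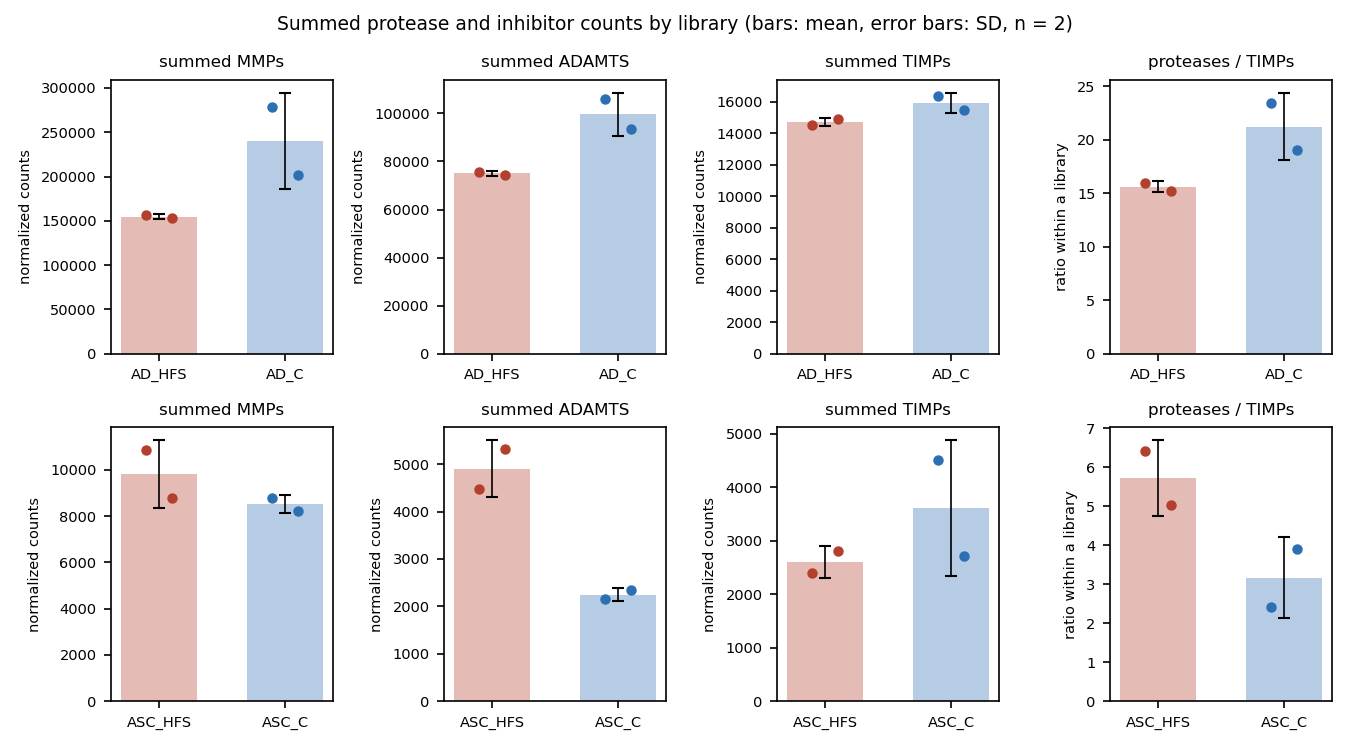
Summed normalized counts of the MMP, ADAMTS and TIMP genes and the ratio of proteases (MMP plus ADAMTS) to TIMPs in each library (points), with the mean (bar) and SD (error bar) of each group, n = 2. In ASC (lower row) the ADAMTS sums and the ratio are higher in both HFS libraries than in both C libraries, and in AD (upper row) the MMP and ADAMTS sums and the ratio are lower in both HFS libraries.

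Several genes that activate, dock or stabilise these proteases were higher in ASC_HFS. Of 13 listed, 7 rose and 0 fell, with a median log2 difference of 0.88, against -0.04 over all genes. Plau, the urokinase that turns plasminogen into the MMP-activating plasmin, had 1344 and 2295 normalized counts in ASC_HFS, against 229 and 281 in ASC_C (limma-trend adjusted p = 0.000171). Spock2, a testican proteoglycan, had 300 and 439 in ASC_HFS, against 24.1 and 50.2 in ASC_C (limma-trend adjusted p = 0.000120). Plat, the tissue plasminogen activator, and Cd44, a hyaluronan receptor that can hold MMPs at the cell surface, also rose, with ratios of 3.33 and 3.58. These 4 genes were higher in each HFS library than in each C library. Of 8 other protease inhibitors 2 rose, the Kunitz inhibitor Tfpi2 (ratio 3.90) and papilin, Papln (ratio 4.57), and the median was -0.02. Of 12 ADAM and tolloid proteases 3 rose, Tll1 (ratio 3.64), Adam8 (ratio 2.46) and Adam33 (ratio 2.61). Of 21 matrix substrates Vwf rose (ratio 2.85), and lumican (Lum, ratio 0.209), biglycan (Bgn, ratio 0.381) and fibrillin 2 (Fbn2) fell. The median over the 21 was 0.26. Fbn2 had 1.87 and 0 normalized counts in ASC_HFS, against 25.9 and 12.1 in ASC_C, so its ratio of 0.0492 rests on few reads. Over all genes 9.41% were called higher, 9.7% lower and 19.1% in either direction. The share of substrates called was thus near that of all genes.

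In AD no member passed the test. Limma-trend and limma-voom each called 0 of 42, against 1.34% of all genes by limma-trend and 0.823% by limma-voom. At an unadjusted p under 0.05 limma-trend found 6 members (14.3%), against 13.9% of all genes. The groups did not overlap for 20 members (47.6%), against 47.7% of all genes, so these shares were those of the table as a whole. Of the 20, 7 were higher in AD_HFS (16.7%, against 24.2% of all genes) and 13 were lower (31%, against 23.5%). The median log2 difference was -0.08 over the members and -0.01 over all genes tested.

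Among the 6, Adamtsl2, which binds fibrillin and proteins of latent TGF-beta, was nearest to a call. It had 459 and 446 normalized counts in AD_HFS, against 69.6 and 140 in AD_C, a ratio of 4.33 (log2 difference 1.25, SE 0.18, limma-trend adjusted p = 0.0625). Mmp2 had 72729 and 70547 in AD_HFS, against 162271 and 108808 in AD_C, a ratio of 0.529 (limma-trend adjusted p = 0.182). Adamts5 had 10242 and 10279 in AD_HFS, against 19440 and 14357 in AD_C, a ratio of 0.607 (limma-trend adjusted p = 0.168). For these 3 genes the diets did not overlap. Adamts2 had 14943 and 13676 in AD_HFS, against 18023 and 19242 in AD_C (limma-trend adjusted p = 0.210), and Adamts10 had 7969 and 7461 in AD_HFS, against 10076 and 9386 in AD_C (limma-trend adjusted p = 0.242). The remaining one, Mmp1b, stayed at or under 5.98 normalized counts in every AD library.

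**Figure D3:**
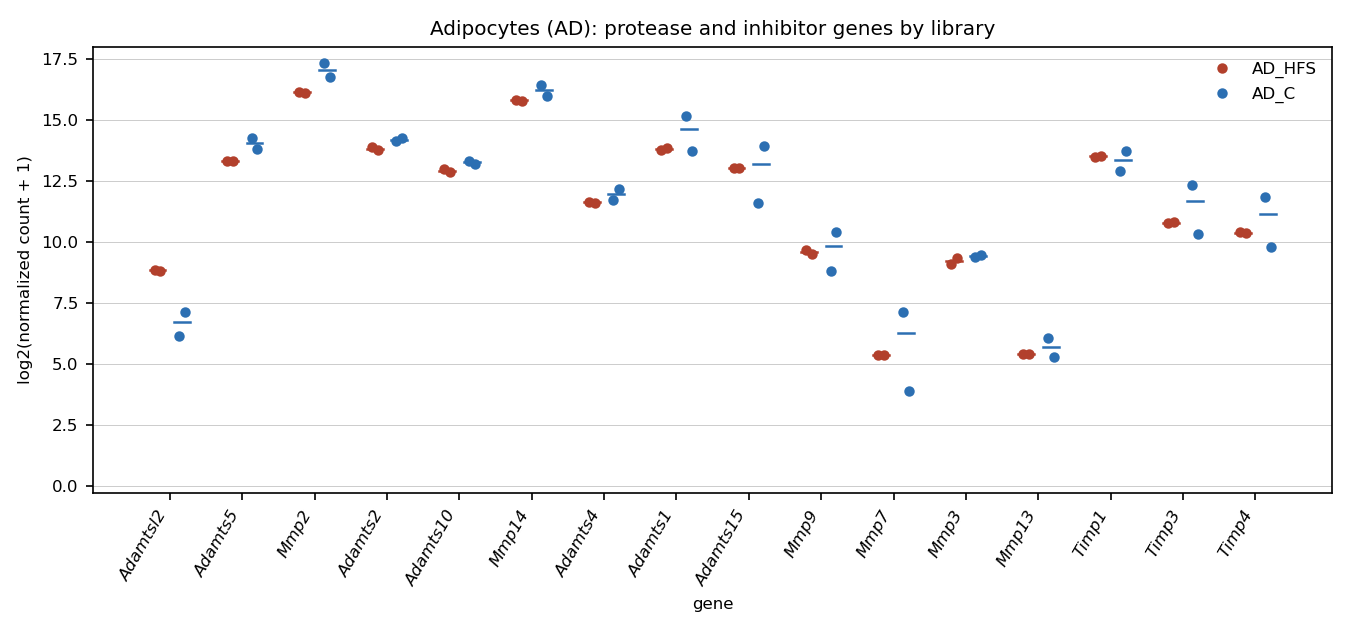
Log2(normalized count + 1) of 16 members in each AD library (points) with the mean of a group (line), AD_HFS in red and AD_C in blue, n = 2 each. The 2 AD_HFS points nearly coincide for most genes, while the AD_C points lie far apart for Timp3, Timp4, Adamts1, Adamts15, Mmp7 and Mmp9.

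For all 3 inhibitors the 2 AD_C libraries lay far apart. Timp3 had 1719 and 1799 normalized counts in AD_HFS, against 5157 and 1262 in AD_C (limma-trend adjusted p = 0.764). Timp4 had 1342 and 1295 in AD_HFS, against 3631 and 889 in AD_C (limma-trend adjusted p = 0.805). Timp1 had 11492 and 11790 in AD_HFS, against 7582 and 13344 in AD_C (limma-trend adjusted p = 0.792). For each of them the HFS libraries lay between the 2 C libraries, with Timp3 and Timp4 high in AD_C replicate 1 and Timp1 high in AD_C replicate 2. Several proteases were split in the same way. Adamts1 had 14033 and 14519 in AD_HFS, against 36730 and 13400 in AD_C, Adamts15 had 8388 and 8260 in AD_HFS, against 3046 and 15358 in AD_C, and Mmp7 had 39.9 and 39.5 in AD_HFS, against 138 and 13.8 in AD_C. The largest ratio between the 2 AD_C libraries among members with at least 100 reads was that of Mmp7 (3.32 on the log2 scale), and in AD_HFS it was that of Mmp3 (0.24).

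Mmp9 had 815 and 727 normalized counts in AD_HFS, against 443 and 1343 in AD_C (limma-trend adjusted p = 0.984). Mmp3 had 540 and 639 in AD_HFS, against 666 and 697 in AD_C (limma-trend adjusted p = 0.639). Mmp13 had 41.5 and 40.7 in AD_HFS, against 64.6 and 37.3 in AD_C (limma-trend adjusted p = 0.803). The diets overlapped for Mmp9 and Mmp13, and Mmp3 was lower in each HFS library than in each C library without a call. Mmp14 had 57533 and 56222 in AD_HFS, against 88113 and 64678 in AD_C, without overlap and without a call (limma-trend adjusted p = 0.414). Calls appeared once either AD_C library was left out, and the direction of a difference could turn on which one was left out. The log2 difference of Mmp7 was 0.35 without AD_C replicate 1 and -0.69 without AD_C replicate 2. Without AD_C replicate 1 limma-trend called 27 members, 9 higher and 18 lower, and 39% of all genes, and without AD_C replicate 2 it called 25, 12 higher and 13 lower, and 53.9% of all genes, and the spread in these fits came from the AD_HFS pair alone. Leaving out AD_HFS replicate 1 or AD_HFS replicate 2 in turn, with the spread from the AD_C pair alone, left no call among the members or in the whole table. Limma-voom called 26 members without AD_C replicate 1 (39.6% of all genes) and 25 without AD_C replicate 2 (50.6%).

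The 26 members of the AD table not named so far had log2 differences between -0.57 (Mmp11) and 0.35 (Adamts6), and their limma-trend adjusted p ran from 0.388 (Adamts8) to 0.979 (Mmp15). The hyalectanase Adamts4 had 3163 and 3095 normalized counts in AD_HFS, against 3364 and 4537 in AD_C, and Adamts9 had 4830 and 4824 in AD_HFS, against 3608 and 5590 in AD_C. Neither was called in AD, where the HFS libraries of Adamts4 lay below both C libraries and those of Adamts9 lay between them. Mmp27 had 17.1 and 21.5 in AD_HFS, against 30.4 and 22.7 in AD_C, and Mmp24 had 1412 and 1387 in AD_HFS, against 1143 and 1223 in AD_C. Of the members listed for AD alone, the membrane-type Mmp16 had 2.44 to 26.3 normalized counts over the 4 libraries, the neutrophil collagenase Mmp8 1.27 to 5.98, the procollagen N-proteinase Adamts3 5.06 to 20.3, Adamts17 26.3 to 48.7 and Adamts20 8.86 to 31.7. Each of these 5 was at a low level in this deep table.

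Summed MMP counts were 156942 and 152791 in AD_HFS, against 278305 and 201413 in AD_C, a ratio of 0.646. Summed ADAMTS counts were 75639 and 74358 in AD_HFS, against 105852 and 93337 in AD_C, a ratio of 0.753. The TIMP sums were 14552 and 14883 in AD_HFS, against 16370 and 15496 in AD_C, a ratio of 0.924. All 3 sums were lower in both HFS libraries, and proteases over inhibitors came to 16.0 and 15.3 in AD_HFS, against 23.5 and 19.0 in AD_C. Mmp2 alone was 46.3% and 46.2% of the MMP counts in AD_HFS, against 58.3% and 54.0% in AD_C. Without the top gene of each class the ratio of AD_HFS to AD_C was 0.805 for the proteases and 0.563 for the TIMPs. Proteases over inhibitors were then 47.6 and 45.9 in AD_HFS, against 21.1 and 80.2 in AD_C, so the diets overlapped and no direction was left. The 9 mesenchymal progenitor markers took 0.367% and 0.379% of reads in AD_HFS, against 0.675% and 0.523% in AD_C, with none called by limma-trend. The median log2 difference over these 9 markers was -0.16, against -0.01 over all genes tested. The part of progenitor cells in the lower protease sums was not tested.

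Of the related genes in AD, Plau was the 1 of 15 activators to rise, with 2887 and 2840 normalized counts in AD_HFS, against 1188 and 994 in AD_C (limma-trend adjusted p = 0.0351). Adam8 (ratio 5.21) and Adam15 (ratio 1.71) rose among 13 ADAM and tolloid proteases. Thrombospondin 2, Thbs2, a matrix protein known to bind Mmp2, fell (ratio 0.489) among 24 substrates, and 0 of 10 other inhibitors were called by limma-trend. Plau and Adam8 were thus called in both tables. Of 12 macrophage markers 6 rose, and the list took 0.367% and 0.368% of reads in AD_HFS, against 0.0374% and 0.0761% in AD_C. Adipocyte markers took 1.96% and 2.01% of reads in AD_HFS, against 1.65% and 2.02% in AD_C, with 0 of 7 called by limma-trend. They took 0.359% and 0.287% of reads in ASC_HFS, against 0.174% and 0.398% in ASC_C, so that every AD library stood above every ASC library, as the labels have it. The part of macrophages in the AD levels was not tested.

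The diet difference itself differed between AD and ASC for 9 of the 36 members in both tables (25%), against 12.5% of all 14018 shared genes, in 1 limma-trend fit of all 8 libraries. The difference in AD was below that in ASC for 7 (19.4%, against 4.93% of all genes) and above it for 2 (5.56%, against 7.53%). The 7 were the hyalectanases Adamts1, Adamts4 and Adamts5, the procollagen N-proteinase Adamts2, Adamts12, Adamtsl4 and Mmp27. All 7 rose in ASC, and in AD their log2 differences ran from -0.69 (Adamts5) to 0.10 (Adamts12), with none called by limma-trend. For Adamts5 the log2 difference between diets was -0.69 in AD and 1.21 in ASC, so the contrast of AD minus ASC was -1.90 (SE 0.27, limma-trend adjusted p = 0.00492). For Adamts2 the contrast was -1.63 (SE 0.23, limma-trend adjusted p = 0.00448), for Mmp27 -1.94 (SE 0.25, limma-trend adjusted p = 0.00353) and for Adamts4 -1.97 (SE 0.37, limma-trend adjusted p = 0.0125). The 2 genes with a difference in AD above that in ASC were Adamtsl2, at 1.47 (SE 0.28, limma-trend adjusted p = 0.0124), and Mmp24, at 1.14 (SE 0.27, limma-trend adjusted p = 0.0263). Lowest deposited values differ between ASC (34.7) and AD (107), so members with few reads are compressed unequally on the 2 scales. Mmp24 had 10 reads and 1 read in the ASC_HFS libraries, and it lost its call in 5 fits that left out a library. Adamtsl2 lost its call by limma-voom (adjusted p = 0.141), on the log2 of recovered counts (limma-trend adjusted p = 0.0616) and without ASC_HFS replicate 2 (0.0519), ASC_C replicate 1 (0.0571) or AD_HFS replicate 1 (0.0530). Of the 9, Adamts2, Adamts5 and Mmp27 were called in each of the 16 alternatives tried, and the other 6 lost the call in at least 1. Adamts1 lost it in 6 fits that left out a library, and Adamts12 in 4 such fits and 1 other alternative. The 16 include the fit without a filter, which repeated the main fit.

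The inhibitors did not pass this test. The contrast was -2.17 for Timp3 (SE 0.71, limma-trend adjusted p = 0.0740), -1.27 for Timp4 (SE 0.66, limma-trend adjusted p = 0.225) and 1.14 for Timp1 (SE 0.44, limma-trend adjusted p = 0.119). The SE of Timp3 and Timp4 was thus larger than that of any of the 9 called members, whose SE ran from 0.22 to 0.55. Mmp2, at -1.25, just missed the threshold (SE 0.37, limma-trend adjusted p = 0.0549). The count of members called was 3 without ASC_HFS replicate 2 (3.9% of all shared genes), 4 without ASC_C replicate 1 (3.83%), 4 without AD_HFS replicate 1 (3.03%), 5 without AD_HFS replicate 2 (3.1%) and 16 without AD_C replicate 2 (16.8%). It was 9 without ASC_HFS replicate 1 (17%), 9 without ASC_C replicate 2 (11.2%) and 10 without AD_C replicate 1 (7.27%). The share of members was thus above that of all shared genes in each of these fits.

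**Figure D4:**
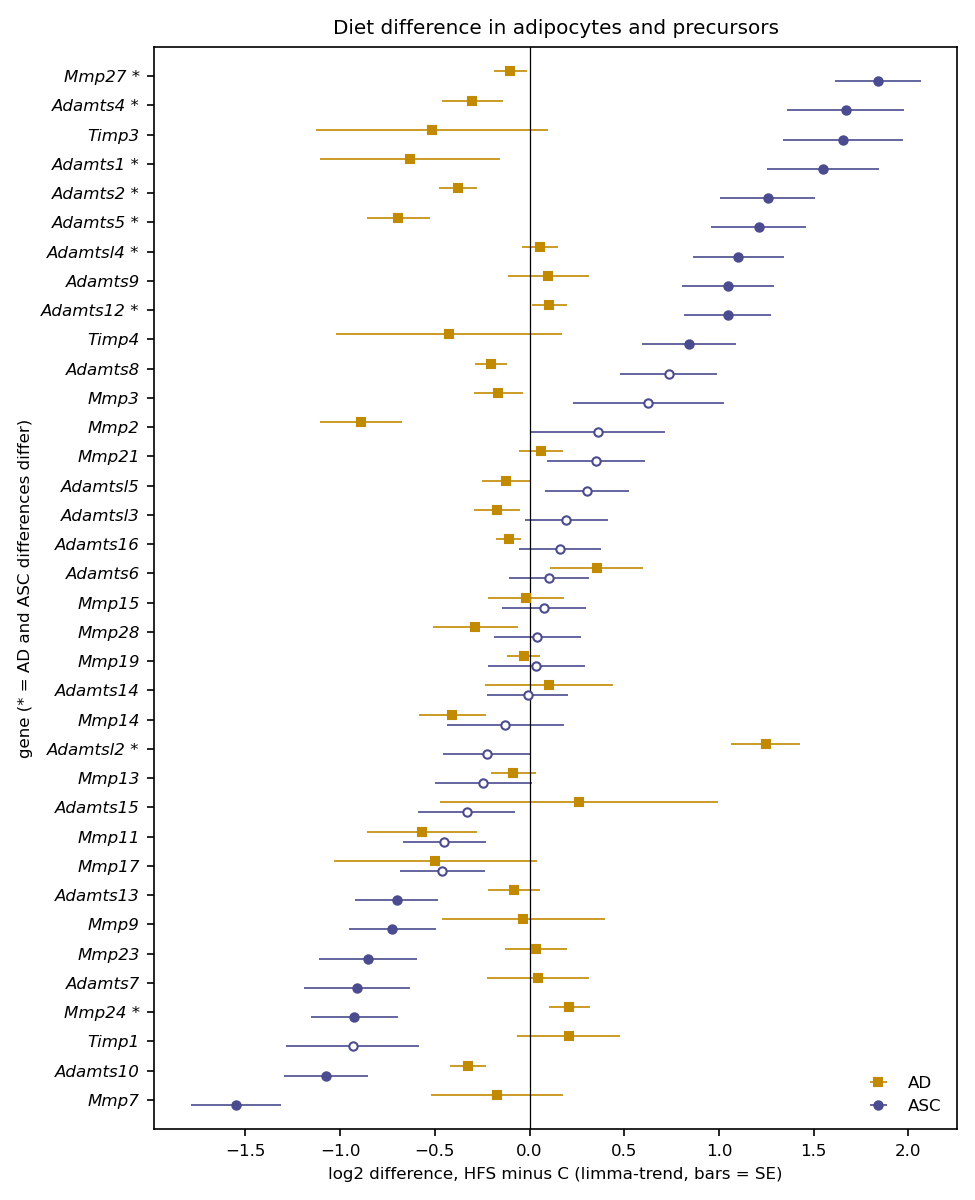
Log2 difference between diets (HFS minus C, limma-trend) with its SE for the 36 members in both tables, AD as squares and ASC as circles, ordered by the ASC difference. Filled circles were called in ASC and open ones were not, no square was called in AD, and an asterisk marks the 9 members whose AD and ASC differences differ.

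By stage, levels were set side by side as RPM, reads scaled to a total of 1000000 over the 14018 genes that both tables list. Stage and table coincide and the tables were made separately, so a difference between stages and one between the tables cannot be told apart, and no test was made. All 4 AD libraries stood above all 4 ASC libraries for 4 of the 36 members (11.1%, against 22.4% of all shared genes), and below them for 13 (36.1%, against 19.1%). The members above were Adamts10, Adamtsl4 and the membrane-type Mmp15 and secreted Mmp28. Mmp15 had 35.8 to 53.5 RPM in AD, against 2.02 to 4.45 in ASC, a ratio of means of 14.2. Mmp28, epilysin, had 17.0 to 27.3 in AD, against 1.88 to 5.04 in ASC, a ratio of 5.74.

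The 13 members below were Mmp3, Mmp9, Mmp13, Mmp19, Mmp23 and Mmp27 among the MMPs, Adamts4, Adamts8, Adamts14 and Adamts16 among the ADAMTS, Adamtsl3, Adamtsl5 and Timp1. Mmp3 had 5.55 to 7.26 RPM in AD, against 151 to 455 in ASC, a ratio of 0.0247. Timp1 had 78.8 to 139 in AD, against 449 to 1401 in ASC, a ratio of 0.151. Mmp9 had 4.61 to 14.0 in AD, against 15.2 to 50.6 in ASC, and Mmp19 stood closest, with 127 to 133 in AD, against 138 to 158 in ASC. The soluble inhibitor and the stromelysin were thus both lower in AD, Timp1 by 6.63 times and Mmp3 by 40.6 times. Mmp2 and Mmp14 overlapped between stages, with 728 to 1687 and 580 to 916 RPM in AD, against 1283 to 1691 and 414 to 603 in ASC. Timp3 (13.1 to 53.6 in AD, against 51.5 to 301.4 in ASC) and Timp4 (9.26 to 37.8 in AD, against 4.19 to 26.2 in ASC) overlapped as well.

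**Figure D5:**
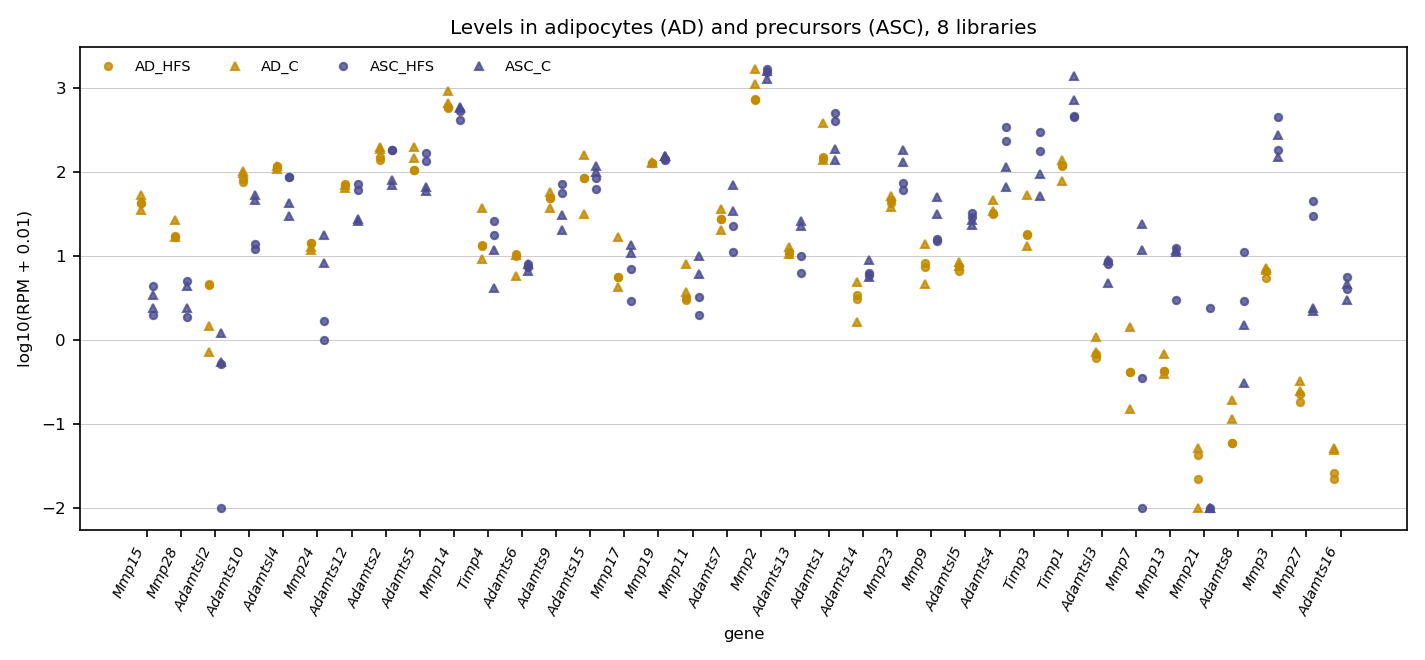
Log10(RPM + 0.01) of the 36 members in both tables in each of the 8 libraries, AD in gold and ASC in violet, with circles for HFS and triangles for C, ordered by the ratio of AD to ASC. Mmp15 and Mmp28 at the left are higher in every AD library and Mmp3, Mmp27 and Adamts16 at the right are lower in every AD library.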

How the data were processed

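RNA sequencing gave 8 rat libraries in 4 groups, which were taken from the sample titles. Per the submitters' processing notes, the tools included STAR, featureCounts, DESeq2 and FastQC, and the genome builds rn7 and mRatBN7.2. Versions, settings and strand use are not given in the sources used here, and the labels name both polyA RNA and an rRNA depletion kit. The authors deposited 1 table for ASC and 1 for AD, and the deposited values are a normalized signal: antilogs, to base 2, of variance-stabilized counts, with lowest values of 34.7 (ASC) and 107 (AD) for genes without reads. Inverting that form gave whole reads for 100% of values (relative tolerance 1e-06). These reads gave depths, normalized counts, class sums and RPM, and intervals cover counting error only.

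The main test was limma-trend, run in R 4.3.3 with limma 3.58.1, of HFS against C within each table on log2(value + 1), with Benjamini-Hochberg adjustment over all its genes. The interaction used 1 fit of 8 libraries over the shared genes. The fits were tested on simulated data first. Tables and plots were made with Python 3.11.15, pandas 2.3.3, matplotlib 3.10.9 and numpy 2.4.6. Alternatives were a pseudocount of 5, no filter, a mean of at least 50, upper quartile scaling, quantile normalization, a replicate block, log2 of recovered counts, limma-voom, each library left out, and sums of deposited values or without the top gene of a class. The filter removed no gene, so the fit without it repeated the main fit. A crossed block and limma-voom without each library were chosen after seeing the data.

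Members and gene lists were chosen with earlier results of these data known. Values in every library are given for members called in either table, all TIMPs, Mmp2, Mmp3, Mmp9, Mmp13 and Mmp14, by rule. Adamts8, Adamts14 and Adamts15 in ASC, Adamts1, Adamts2, Adamts5, Adamts10, Adamts15, Adamts4, Adamts9, Adamtsl2, Mmp7, Mmp24 and Mmp27 in AD and the members named for the stage comparison were added after their values were seen. Of related lists, at most 4 called genes per direction are named. Neutrophil, lymphoid and smooth muscle markers were measured as well (2, 2 and 8 genes in ASC), with 1, 0 and 1 rising and 0, 0 and 2 falling in ASC_HFS. In AD (6, 0 and 8 genes) none of them was called, and of 8 endothelial markers 1 rose. Promoter windows are from RefSeq, assembly GRCr8, not the build of the counts, so gene positions in the build of the counts are not given. Not every gene overlap is reported here.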

Additional observations from a re-analysis of the deposited data

Results flagged for a closer look

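For 9 members the diet difference in AD differed from that in ASC by the test of the difference itself (limma-trend, contrast of the log2 difference in AD minus that in ASC, adjusted p under 0.05 over 14018 genes). The contrast was -2.18 for Adamts1, -1.97 for Adamts4, -1.94 for Mmp27, -1.90 for Adamts5, -1.63 for Adamts2, -1.05 for Adamtsl4 and -0.941 for Adamts12. It was 1.47 for Adamtsl2 and 1.14 for Mmp24. The first 7 were called higher in ASC and none of the 9 was called in AD by limma-trend. For Adamts1 the 2 AD_C libraries differed (36730 and 13400 normalized counts), and its contrast lost its call in 6 fits that left out a library. Adamts12 lost its call in 4 such fits and in 1 other alternative, Adamtsl4 in 3 such fits and Adamts4 in 2. Mmp24 had 10 reads and 1 read in the ASC_HFS libraries, and its contrast lost its call in 5 of 16 alternatives. For Adamtsl2 the ASC level was at most 3.71 normalized counts in any library, and the contrast lost its call in 5 of 15 alternatives, with limma-voom on the recovered reads giving the highest adjusted p (0.141).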

How the results depend on the processing

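With all 4 ASC libraries, 13 of the 17 called members were called in each of the 8 other settings, and 4 were lost in at least 1 (Adamts7, Adamts13, Mmp9 and Timp4). The 8 include the setting without a filter, which repeated the main fit. The log2 of recovered counts called 4 members lower in place of 7, against 8.01% of all genes. Leaving out 1 library gave 0 to 0 ASC members called by limma-trend, higher, lower or in all, and with limma-voom the calls were 9 without ASC_HFS replicate 1 (0 of them lower, against 1.96% of all genes) and 13 without ASC_HFS replicate 2 (2 lower, against 4.16%). In AD the calls ran from 0 to 27 by limma-trend, and with limma-voom they were 26 without AD_C replicate 1 and 25 without AD_C replicate 2. In the test of the difference between stages they ran from 3 to 16, with 0 to 6 above and 3 to 10 below. The fits without an AD_C library also called a large share of all genes, so the AD calls were not particular to the members. The shares of all genes called in the AD fits and in the test between stages are given above beside each fit. A single remaining library of a group is assumed to vary like the other groups.

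With the replicate block limma-trend called 18 ASC members (11 higher and 7 lower, against 20.8% of all genes), 1 AD member (Adamtsl2, higher, adjusted p = 0.00742), or 2.38% against 3.62% of all genes, and 10 in the test between stages (3 above and 7 below, against 10.1%). The labels do not pair the replicate numbers, and the deviations of libraries with the same number correlated at -0.12 in ASC and 0.0014 in AD. The crossed pairing in ASC, chosen after seeing the data, called 19, against 25.4% of all genes.

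Log2 differences without 1 library were followed for 23 members, and the others, among them Adamts15, were not followed. Among the 23 the sign changed in ASC with ranges of -0.00042 to 1.25 for Mmp3, -0.63 to 0.14 for Mmp13 and -0.32 to 0.059 for Mmp14. In AD the ranges were -1.35 to 0.090 for Adamts1, -0.34 to 0.43 for Adamts7, -0.20 to 0.40 for Adamts9, -0.21 to 0.045 for Adamts13, -0.010 to 0.12 for Adamtsl4, -0.69 to 0.35 for Mmp7, -0.67 to 0.60 for Mmp9, -0.21 to 0.040 for Mmp13, -0.17 to 0.24 for Mmp23, -0.19 to 0.60 for Timp1, -1.45 to 0.42 for Timp3 and -1.33 to 0.48 for Timp4. The contrast between stages ran from -0.23 to 0.54 for Mmp13. By limma-voom the AD difference of Mmp7 was 0.060. None of these had been called. Without the top gene of each class, the ratio of HFS to C was 1.27 for proteases, 3.66 for TIMPs and 0.328 for proteases over TIMPs in ASC, against 1.37, 0.720 and 1.81 with it. In AD it was 0.805, 0.563 and 0.924 (the diets overlapped in the last of these and in the TIMPs), against 0.677, 0.924 and 0.735 with it. The cause of these changes was not tested. The depth of ASC_HFS replicate 2 limits what can be said of members with few reads.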
